A study of Mus musculus with 40 samples.

Results

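The genes of glycolysis and glycogen metabolism were followed in the thigh muscle of 40 male C57BL/6J mice, on 1 Illumina MouseRef-8 v2.0 expression array per animal. The list of 32 genes was chosen by name and function, with earlier results of these data known. A gene was measured by the brightest probe that carried its symbol. A probe matched 28 of the 32 genes, out of 16593 genes with a probe, and 24 of them passed the filter on dim probes, out of 8690 genes. Hk1, Aldoc, Gbe1 and Ppp1r3a had a probe that stayed too dim to be tested. No probe carried the symbol of Gpi1, Pfkfb1, Eno1 or Ldhb, and these were not analysed here.

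The mice differed in the diet of the dam and in their own diet after weaning, low fat (LF) or high fat (HF), and each group is written with the dam's diet first. LF_LF and HF_LF sons ate the low fat diet after weaning and LF_HF and HF_HF sons ate the high fat diet, with 10 arrays in each of the 4 groups. Dams had eaten their diet before mating, through pregnancy and until weaning, and all sons were killed at 9 weeks of age. By the study's methods the sons had been fasted for 4 hours. According to the study's methods the fat in both diets came mainly from coconut oil and the high fat diet was low in carbohydrate, so that the diets differed in both. The labels give 12 cage numbers, and only 5 of them were shared by sons on both post-weaning diets. They do not say whether the number is that of the birth cage or of later housing. According to the study's methods the males of each cage were split between the diets at weaning. Below, a cage means such a number, and a cage that held both diets is a number shared by sons on both.

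Muscle takes up glucose, traps it as glucose 6-phosphate through hexokinase, and either splits it to pyruvate and lactate in glycolysis or stores it as glycogen. Glycogen is built from UDP-glucose, which Ugp2 makes, by glycogen synthase (Gys1). It is broken down by glycogen phosphorylase (Pygm), which phosphorylase kinase switches on when calcium rises in the working fibre. Fast fibres depend more on this route than slow fibres do, which carry more mitochondria.

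Intensities were compared on a log2 scale, and a gene was called where the adjusted p from limma was below 0.05 after Benjamini-Hochberg adjustment over all 12467 tested probes. The tissue was checked against muscle markers, of which Acta1, the skeletal muscle actin, lay between 15583.5 and 31356.8 in all 40 arrays. The arrays fell into 2 sets of 17 and 23 on the first principal component of the 13230 untested probes, which the labels do not name. In set 1 lay 6 HF_LF and 5 HF_HF arrays, against 2 LF_LF and 4 LF_HF arrays. Of the 24 members, 4 differed between the sets with group in the fit, namely Pfkfb3, Pgam1, Pkm and Pygm, the last being higher by 0.14 on the log2 scale in set 2 (adjusted p = 0.0461), beside 28.1% of all tested probes. As the tissue was taken whole, a change in the fibres that make a transcript and a change in its amount per fibre cannot be told apart.

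Several glycolytic probes lay close to the top of the scale, which ended at 32250.5 on the arrays. Eno3, the muscle enolase, had a mean intensity of 30140.7 and stood at the highest value of the scale on 10 of 40 arrays. Gapdh averaged 29627.1 and Aldoa, the muscle aldolase, 28935.7. At the other end Pgk1 averaged 81.5 and Pfkfb3 83.7, close to the median of all values, 75.7, where a fold change is compressed. Within groups the SD on the log2 scale ran from 0.06 for Gapdh to 0.34 for Phka1, with a median of 0.15 over the 24 members beside 0.13 over all tested probes.

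The first comparison asked what the high fat diet after weaning did in sons of LF dams. Of the 24 members, 2 were called and both were lower in LF_HF than in LF_LF: Pygm, which releases glucose 1-phosphate from glycogen, and Phkg1, the catalytic subunit of phosphorylase kinase in muscle, which activates Pygm. Over all tested probes 1.78% were called lower in this comparison. The median change of the members was -0.04 on the log2 scale, against -0.01 over all probes.

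Pygm had intensities of 3613.8 to 4817.0 in LF_LF (median 4087.6) and of 2863.8 to 3894.4 in LF_HF (median 3234.75). All 10 LF_HF arrays lay below the LF_LF mean and 8 lay below the lowest LF_LF array, so that the groups overlapped by a few arrays. The difference was -0.31 ± 0.06 (SE) on the log2 scale, a fold of 0.80 (limma adjusted p = 0.00319). Phkg1 ran from 3378.4 to 4062.0 in LF_LF (median 3667.45) and from 2604.1 to 3385.8 in LF_HF (median 3081.1). Of the LF_HF arrays 9 lay below every LF_LF array. It fell by 0.26 ± 0.05 (SE), a fold of 0.84 (limma adjusted p = 0.00255).

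Within array set 1 the difference of Pygm was -0.34 and that of Phkg1 -0.17 (adjusted p of 0.422 and 0.686), and within set 2 they were -0.30 and -0.30 (adjusted p of 0.105 and 0.0267). With the array set as a block both calls were kept, Pygm at -0.31 (adjusted p = 0.00639) and Phkg1 at -0.27 (adjusted p = 0.00348). Without cage 4 or cage 11 Pygm lost its call, at -0.27 (adjusted p = 0.066) and -0.30 (adjusted p = 0.0524). The other kinase subunits were not called in this comparison. Phka1, a regulatory subunit, differed by -0.08 ± 0.14, and Phkb, the other large regulatory subunit, by -0.11 ± 0.12, with 95% intervals of -0.37 to 0.21 and -0.36 to 0.14. Of the enzymes of glycogen synthesis, Gys1 differed by 0.17 ± 0.06 and Ugp2 by 0.15 ± 0.06, without passing the test over all probes (limma adjusted p of 0.157 and 0.135).

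None of the 14 tested members from hexokinase to lactate dehydrogenase, Pfkfb3 included, was called. Pgk1, which makes ATP in the lower part of glycolysis, came nearest with 0.14 ± 0.04 (limma adjusted p = 0.0614). Gapdh differed by -0.01 ± 0.03, with a 95% interval of -0.07 to 0.04, and Pfkm, the muscle phosphofructokinase and a main control point of glycolysis, by -0.08 ± 0.03 (limma adjusted p = 0.139). Hk2, the muscle hexokinase, differed by -0.03 ± 0.05.

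**Figure D1:**
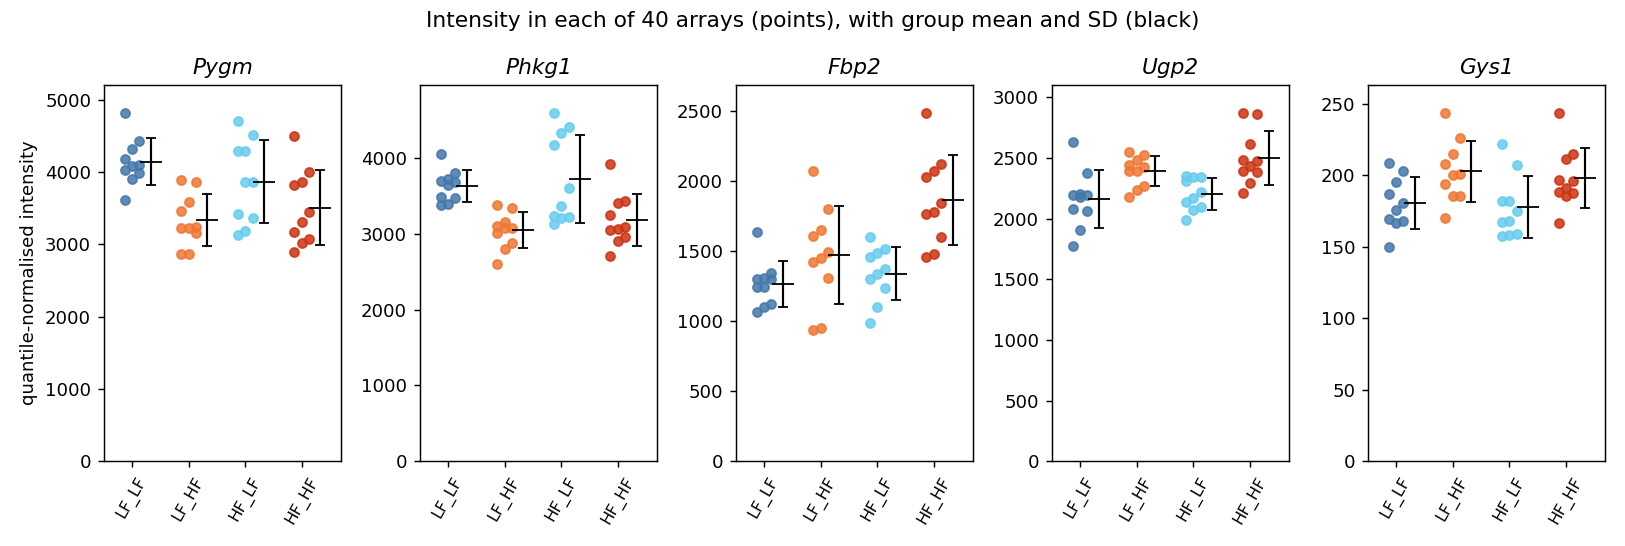
Quantile-normalised intensity (y axis, from 0) of the 5 members called for post-weaning diet, in each of the 40 arrays (points) by group (x axis, dam's diet first), with the group mean and SD in black. Pygm and Phkg1 were lower and Fbp2, Ugp2 and Gys1 higher on the high fat diet, with groups that overlapped in each panel.

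The same diet change was tested in sons of HF dams. Here 1 of the 24 members was called, Fbp2, the muscle fructose bisphosphatase, which runs the step opposite to phosphofructokinase. It was higher in HF_HF than in HF_LF, and over all tested probes 0.225% were called higher. Fbp2 ran from 985.3 to 1599.8 in HF_LF (median 1353.4) and from 1458.8 to 2485.5 in HF_HF (median 1812.25). All 10 HF_HF arrays lay above the HF_LF mean and 8 lay above every HF_LF array. The difference was 0.47 ± 0.10 (SE), a fold of 1.39 (limma adjusted p = 0.0261).

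The Fbp2 call crossed the threshold on leaving out single arrays or cages, while its direction stayed the same. It was 0.45 to 0.49 (adjusted p between 0.0508 and 0.0559) without HF_LF replicate 5, HF_LF replicate 9, HF_HF replicate 9 or HF_HF replicate 10, and 0.42 to 0.62 (adjusted p between 0.0728 and 0.151) without cage 10, 12, 21 or 23. With 1 value per cage the difference was 0.55 (adjusted p = 0.234), and within array sets 1 and 2 it was 0.61 and 0.31 (adjusted p of 0.0996 and 0.525), while the array set as a block kept the call at 0.48 (adjusted p = 0.0264). Of all 12467 probes 45 were called in the main fit, against 0 with 1 value per cage and 3 and 1 within array sets 1 and 2. In the sons of LF dams Fbp2 differed by 0.18 ± 0.12 (limma adjusted p = 0.454), and the LF_HF arrays spread more widely, from 939.5 to 2070.6, with 3 above and 2 below all LF_LF arrays.

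Next to Fbp2 stood Ugp2 with 0.18 ± 0.05 (limma adjusted p = 0.149) and Pfkl, the liver type of phosphofructokinase, with 0.21 ± 0.07 (limma adjusted p = 0.183). A second, dimmer Pfkl probe went the other way, with -0.04 ± 0.12. Pygm differed by -0.14 ± 0.09 and Phkg1 by -0.22 ± 0.08 (limma adjusted p of 0.597 and 0.275). Neither passed the test in this pair, and the HF_LF arrays were widely spread for both. For Phkg1, 4 HF_LF arrays lay above every LF_LF array, between 4171.9 and 4600.8, while 5 lay below every LF_LF array, between 3133.7 and 3371.1. Of those 4 high arrays, 3 had the lowest slow fibre scores of the group (-0.72, -1.41 and -2.13), a measure described further on. These 3 lay in array set 1, and those at -1.41 and -2.13 came from cage 23. The highest array, at 4600.8, had a score of 0.29 and lay in set 2. Whether the score bore on this spread was not tested.

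**Figure D2:**
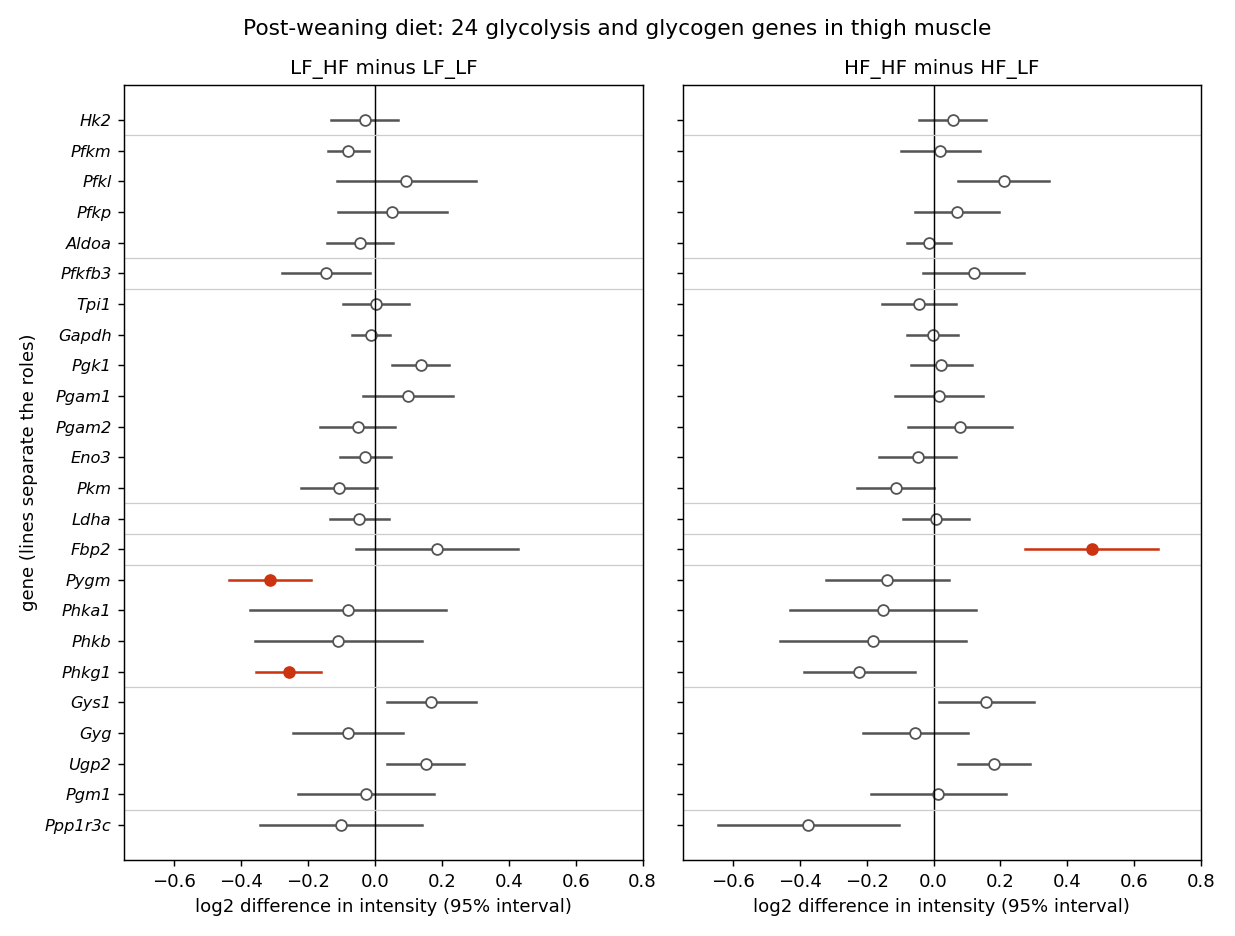
Log2 difference in intensity (x axis) between the high fat and the low fat diet after weaning for the 24 tested members (y axis, ordered by role), in sons of LF dams (left) and of HF dams (right). Points are limma estimates, bars their unadjusted 95% intervals and filled red points the called genes, which were Pygm and Phkg1 on the left and Fbp2 on the right.

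With all 40 arrays in 1 fit, the mean of both post-weaning differences was tested. Of the 24 members 5 were called, 3 higher and 2 lower on the high fat diet, beside 4.51% of all tested probes called higher and 3.37% called lower. The 2 that fell belong to glycogen breakdown, Pygm and Phkg1. The 3 that rose were Gys1 and Ugp2, which build glycogen, and Fbp2. Phka1 and Phkb, the remaining members of the breakdown group, differed by -0.12 ± 0.10 and -0.15 ± 0.09 and were not called. Of the 4 tested genes of glycogen synthesis, Gyg (-0.07 ± 0.06), which primes the glycogen chain, and Pgm1 (-0.01 ± 0.07), which interconverts glucose 1- and 6-phosphate, were not called.

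Phkg1 differed by -0.24 ± 0.05 (limma adjusted p = 0.000812), and 19 of the 20 HF-fed arrays lay below the mean of the LF-fed sons of like dams. Pygm differed by -0.23 ± 0.05 (limma adjusted p = 0.00631), with 17 of 20 arrays in that direction. The estimates of both genes lay below 0 for either kind of dam, with the values given above.

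Ugp2 had medians of 2183.35 in LF_LF and 2409.85 in LF_HF, with ranges of 1769.5 to 2630.4 and of 2176.7 to 2546.1. In sons of HF dams its medians were 2193.95 in HF_LF (1991.7 to 2353.0) and 2452.95 in HF_HF (2208.3 to 2871.2). All 20 HF-fed arrays lay above the mean of their LF-fed counterparts, and the groups overlapped for both kinds of dams. The difference was 0.17 ± 0.04, a fold of 1.12 (limma adjusted p = 0.00328).

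Gys1 was dim, with medians of 178.05 in LF_LF (149.8 to 208.7), 200.6 in LF_HF (170.4 to 243.5), 171.7 in HF_LF (157.2 to 222.0) and 193.6 in HF_HF (166.7 to 243.6). Of the HF-fed arrays 18 of 20 lay above the mean of the LF-fed sons of like dams, though the ranges overlapped. The difference was 0.16 ± 0.05 (limma adjusted p = 0.0263), and a second Gys1 probe gave 0.11 ± 0.05 without passing the test (limma adjusted p = 0.146). The Gys1 call was lost without cage 23 (0.11, adjusted p = 0.247), cage 4 (0.14, adjusted p = 0.105), cage 14 (0.14, adjusted p = 0.0617) or cage 6 (0.15, adjusted p = 0.0572). It was also lost without the 3 arrays rich in immune cell markers (0.14, adjusted p = 0.0734). These had a mean log2 deviation above 0.7 in macrophage markers or in lymphocyte markers, of which only 1 gene, Coro1a, was tested. LF_LF replicates 2 and 5 passed this limit by Coro1a alone, LF_HF replicate 6 by both. Fbp2 differed by 0.33 ± 0.08 (limma adjusted p = 0.00606), higher in 18 of 20 arrays.

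The other 19 members were not called in this fit. Pkm, pyruvate kinase, came nearest to a call among the genes of glycolysis, with -0.11 ± 0.04 (limma adjusted p = 0.0732). Ppp1r3c, which brings protein phosphatase to glycogen, differed by -0.24 ± 0.09 (limma adjusted p = 0.109). For Gapdh, Aldoa, Eno3, Tpi1, Pgam2 and Ldha the estimates lay between -0.04 and 0.01, and the widest limits of their 95% intervals were -0.11 and 0.11.

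Sons on both diets shared only 5 cage numbers, with 12 HF-fed and 11 LF-fed arrays. A fit within these cages called 1 member and 352 of all 12467 probes, against 982 over all 40 arrays. Phkg1 differed there by -0.26 (limma adjusted p = 0.0461), Pygm by -0.26 (adjusted p = 0.0526), Gys1 by 0.23 (adjusted p = 0.0633), Ugp2 by 0.18 (adjusted p = 0.0649) and Fbp2 by 0.27 (adjusted p = 0.296). The direction was the same as over all arrays for each of the 5 genes.

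The sequences before the starts of the called genes are shown because these members moved with the same diet. They are the 250 bases before the start, from the RefSeq annotation of GRCm38.p6, less the 46 for Phkg1 that lie inside the annotated gene, and capitals mark each E-box (CANNTG on either strand), the short sequence that myogenic factors of the bHLH class bind. For Phkg1 2 of the E-boxes overlap each other. Ugp2 has 2 annotated starts and the outer one is shown.
Pygm, chr19:6384158-6384407, + strand: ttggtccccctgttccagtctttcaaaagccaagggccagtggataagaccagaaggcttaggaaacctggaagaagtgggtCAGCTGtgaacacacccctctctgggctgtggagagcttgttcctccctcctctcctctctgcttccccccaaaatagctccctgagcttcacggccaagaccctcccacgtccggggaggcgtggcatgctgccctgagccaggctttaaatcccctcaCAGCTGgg
Phkg1, chr5:129879135-129879338, - strand: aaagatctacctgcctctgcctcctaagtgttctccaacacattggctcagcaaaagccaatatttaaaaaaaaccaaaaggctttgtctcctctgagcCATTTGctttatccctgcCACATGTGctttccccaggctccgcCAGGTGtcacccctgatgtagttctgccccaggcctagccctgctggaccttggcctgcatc
Fbp2, chr13:62858401-62858650, - strand: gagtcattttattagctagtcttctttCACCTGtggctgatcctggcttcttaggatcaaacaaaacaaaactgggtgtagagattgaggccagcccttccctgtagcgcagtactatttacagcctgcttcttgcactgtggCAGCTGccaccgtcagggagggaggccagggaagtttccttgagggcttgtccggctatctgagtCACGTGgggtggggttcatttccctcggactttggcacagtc
Ugp2, chr11:21371268-21371517, - strand: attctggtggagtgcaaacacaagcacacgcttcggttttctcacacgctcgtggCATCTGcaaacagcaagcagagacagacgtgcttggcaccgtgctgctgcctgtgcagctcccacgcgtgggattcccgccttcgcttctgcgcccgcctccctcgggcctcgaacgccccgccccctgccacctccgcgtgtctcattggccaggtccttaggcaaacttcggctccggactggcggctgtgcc
Gys1, chr7:45434589-45434838, + strand: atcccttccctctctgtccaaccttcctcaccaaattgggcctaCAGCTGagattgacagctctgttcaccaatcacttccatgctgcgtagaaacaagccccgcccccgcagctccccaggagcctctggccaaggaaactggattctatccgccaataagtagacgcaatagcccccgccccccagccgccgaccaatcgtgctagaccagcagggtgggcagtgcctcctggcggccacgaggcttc

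An E-box stood in each of the 6 windows of these 5 genes, but also in 66.2% of all 32851 RefSeq windows of 250 bases, so that its presence does not set the genes apart. Phkg1 had 4 matches in its 204 bases, Fbp2 3, Pygm 2, and Ugp2 and Gys1 1 each in the window shown. The last match in the Fbp2 window is the palindrome CACGTG, which 6% of all windows held. The letters AGGTCA, a half-site of nuclear receptors, stood on neither strand in any of the 6 windows and in 14% of all windows.

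Whether the post-weaning effect depended on the dam's diet was tested by the interaction. None of the 24 members was called and 0% of all tested probes were, with 1 member at an unadjusted p below 0.05 and 5.19% of all probes. The 3 smallest p-values belonged to Pfkfb3, whose 2 effects differed by 0.27 ± 0.10, to Pgk1 (-0.11 ± 0.06) and to Fbp2 (0.29 ± 0.16), each with an adjusted p of 0.908 by limma. That Pygm and Phkg1 were called in sons of LF dams and Fbp2 in sons of HF dams is therefore not shown to be a difference between the dams' diets.

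The diet of the dam was then compared among sons on 1 diet. It differed only between cages, so that cagemates are not separate replicates of it. The sons came from 5 cages in HF_LF and from 4 in each other group. With 1 value per cage none of the members was called in either pair, beside 0.016% of all probes in LF-fed and 0% in HF-fed sons. In LF-fed sons, HF_LF against LF_LF, none of the 24 members was called by limma, beside 0.016% of all probes. At an unadjusted p below 0.05 lay 2 members and 8.21% of all probes. The member with the smallest p was Pfkfb3, which makes the phosphofructokinase activator fructose 2,6-bisphosphate, with -0.19 ± 0.06 (limma adjusted p = 0.499). Pfkfb3 was among the members that differed between the array sets. With the array set as a block it differed by -0.14 (adjusted p = 0.959), and within sets 1 and 2 by -0.28 and -0.07 (adjusted p of 0.997 and 0.899). Ppp1r3c differed by 0.42 ± 0.15 (limma adjusted p = 0.513), and 9 of 10 HF_LF arrays lay above the LF_LF mean, although HF_LF replicate 8, at 6709.5, lay below all LF_LF arrays. Within array sets 1 and 2 the difference of Ppp1r3c was 0.095 and 0.65 (adjusted p of 0.997 and 0.501). Pgam2, the muscle phosphoglycerate mutase, differed by -0.13 ± 0.07.

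In HF-fed sons, HF_HF against LF_HF, none of the 24 members was called by limma and 0% of all probes were, with 4 members and 7.24% of all probes at an unadjusted p below 0.05. Fbp2 had the smallest p of the members, with 0.37 ± 0.13 (limma adjusted p = 0.467), with all 10 HF_HF arrays above the LF_HF mean. Pfkm differed by 0.09 ± 0.03 (limma adjusted p = 0.467) and Hk2 by 0.14 ± 0.05 (limma adjusted p = 0.503).

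**Figure D3:**
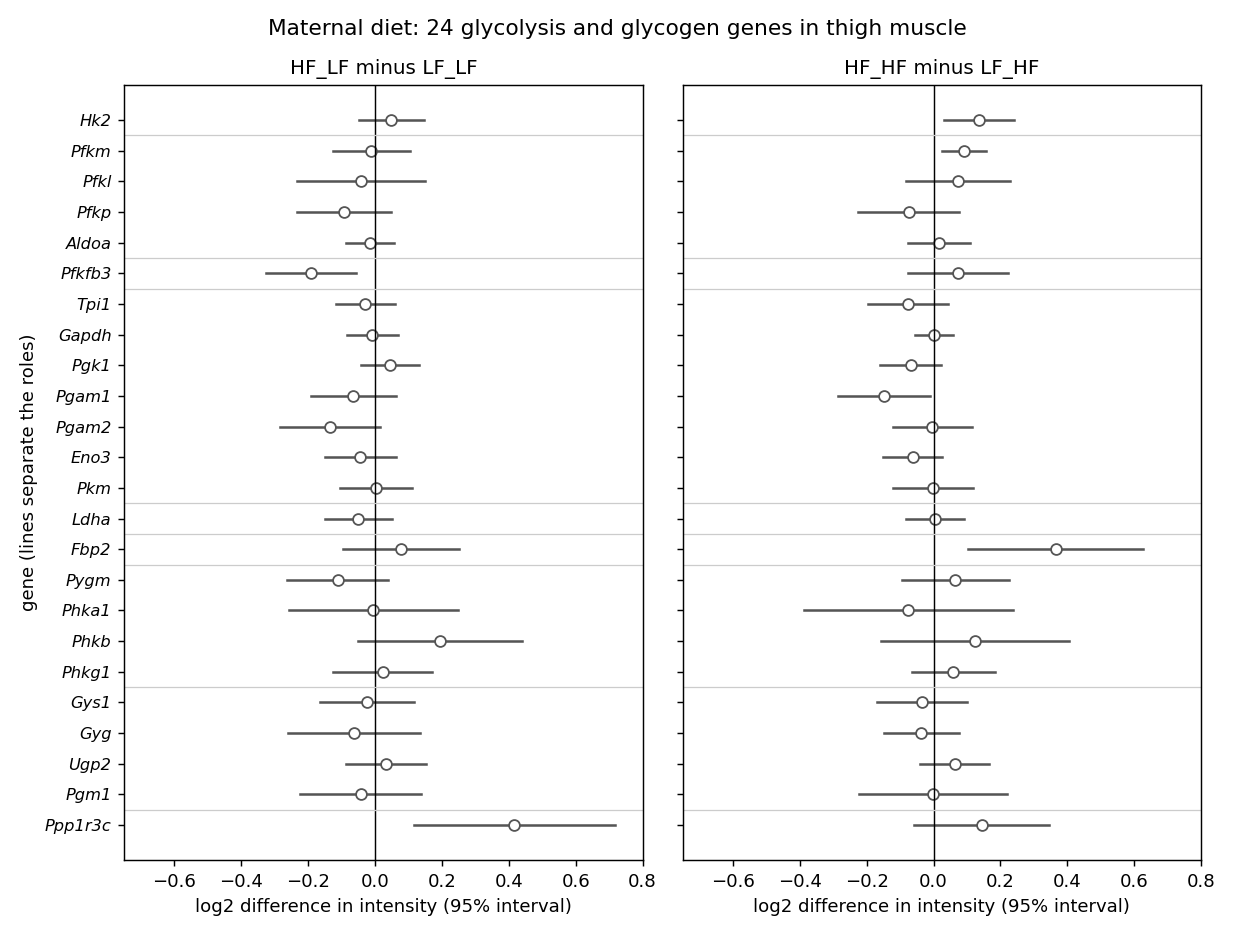
Log2 difference in intensity (x axis) between sons of HF and of LF dams for the 24 tested members (y axis, ordered by role), in LF-fed sons (left) and HF-fed sons (right). Points are limma estimates and bars their unadjusted 95% intervals; no member was called, and all points are open.

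The pooled maternal effect over 40 arrays called none of the 24 members either by limma, beside 0.61% of all probes. At an unadjusted p below 0.05 lay 4 members and 9.97% of all probes. The 3 smallest p-values belonged to Ppp1r3c (0.28 ± 0.09, limma adjusted p = 0.2), Fbp2 (0.22 ± 0.08, limma adjusted p = 0.276) and Hk2 (0.09 ± 0.03, limma adjusted p = 0.291). Without HF_LF replicate 8, the array lowest in Ppp1r3c within its group, Ppp1r3c was called, with 0.33 (adjusted p = 0.0364). Leaving out the lowest array of a higher group raises the difference in any case, and this was the only call of Ppp1r3c in 58 alternatives.

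Slow and fast fibres differ in glycolysis, and the share of slow fibre transcripts differed between the animals. A slow fibre score, the mean log2 deviation of 14 slow fibre markers such as Myh7 and Tnni1, averaged -0.38 ± 0.85 (SD, n = 10, from -1.62 to 0.99) in LF_LF and 0.55 ± 0.49 (-0.25 to 1.24) in LF_HF. In sons of HF dams it averaged -0.25 ± 0.97 (-2.13 to 1.13) for HF_LF and 0.09 ± 0.60 (-1.08 to 0.84) for HF_HF. Of the 14 markers 5 were called higher in LF_HF than in LF_LF and none in HF_HF against HF_LF. The fast fibre score moved much less, from -0.01 to 0.02 in group means, with 1 of its 16 markers called higher and 3 lower in LF_HF against LF_LF. The fast markers Tnni2 (26904.2 to 32250.5) and Mylpf (21330.3 to 32250.5) reached the top of the scale. This limits what a change in the fast fibre score could show. In LF_HF against LF_LF 4 of 10 endothelial markers and 1 of 4 red blood cell markers were called higher, and of 14 macrophage markers none was called. Over all tested probes 2.4% were called higher and 1.78% lower in that pair. In the pooled post-weaning fit 5 slow fibre markers, 3 endothelial markers and 1 red blood cell marker were called higher. Of 16 fast fibre markers and of 8 white adipocyte markers, 1 was higher and 2 were lower in each list. Over all tested probes 4.51% were called higher and 3.37% lower in this fit.

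Within groups, 1 of the 24 members was called by its slope on the slow fibre score, Ldha, the muscle subunit of lactate dehydrogenase, and over all probes 2.65% were called by a slope in either direction. Ldha changed by -0.07 ± 0.02 for each unit of the score (limma adjusted p = 0.0328). The call was lost without the 2 arrays farthest from the median score, HF_LF replicate 7 and LF_LF replicate 4 (adjusted p = 0.22), and on leaving out any of 8 single arrays (LF_LF replicates 3 and 4, LF_HF replicate 3, HF_LF replicates 5, 7 and 10, HF_HF replicates 1 and 8) or 5 cages (4, 8, 12, 21 and 23). The slopes without them were -0.06 to -0.07, with adjusted p of 0.0508 to 0.237. The neighbours by p were Phkg1, with -0.10 ± 0.03 (limma adjusted p = 0.0626), and Gys1, with 0.09 ± 0.03 (limma adjusted p = 0.0962). Of 58 alternatives, 9 called the slope of Phkg1 and 2 that of Gys1, while Ldha lost its call in 15. Pkm and Eno3 also had negative slopes, -0.07 ± 0.03 and -0.06 ± 0.02, that missed the threshold.

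**Figure D4:**
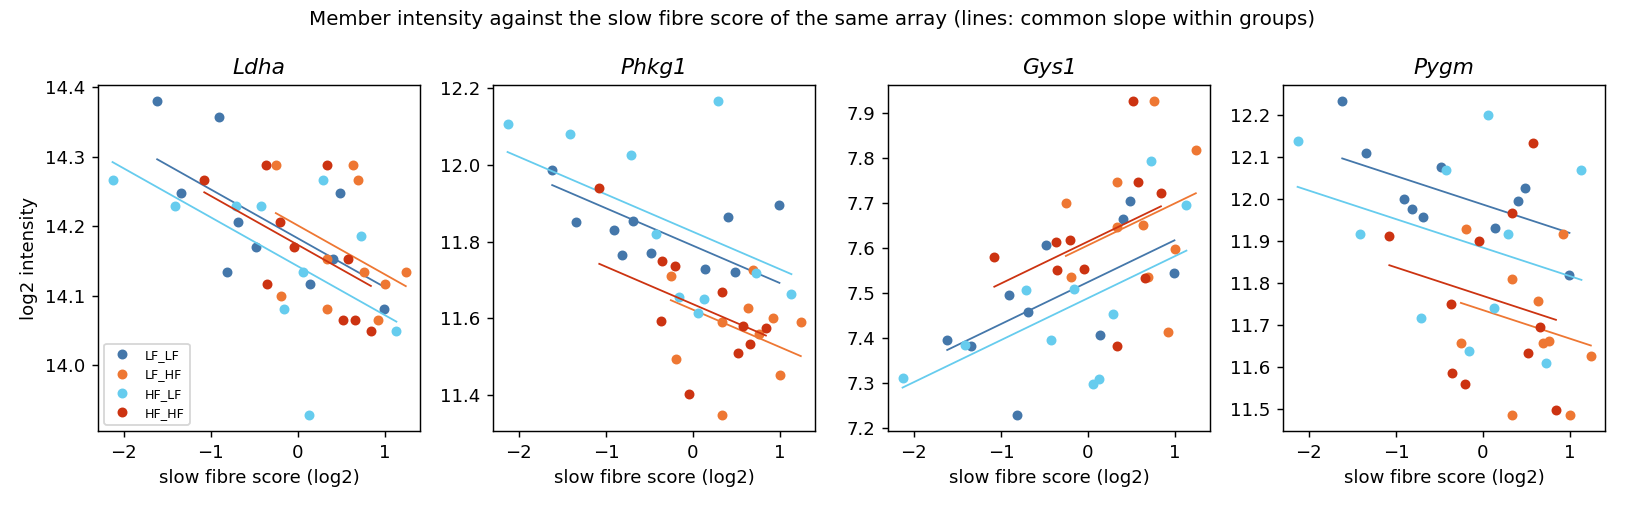
Log2 intensity (y axis) of Ldha, Phkg1, Gys1 and Pygm against the slow fibre score of the same array (x axis, log2 units), with arrays coloured by group. Lines are the common slope within groups, of which the slope of Ldha was called, and the fitted lines of both groups on the high fat diet lay lowest for Phkg1 and Pygm.

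With the slow fibre score as a covariate, the sons of LF dams no longer gave a call among the members, and 61 of all 12467 probes were called in place of 521, with Phkg1 at -0.23 (adjusted p = 0.063) and Pygm at -0.23 (adjusted p = 0.132). In the pooled post-weaning fit 3 of the 5 calls were kept with this covariate, those of Phkg1, Ugp2 and Fbp2, while over all probes 982 calls became 544. Gys1 was lost, at 0.10 (adjusted p = 0.241), and so was Pygm, at -0.18 (adjusted p = 0.0587). Whether the fibre make-up of the sample gave these changes was not tested.

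The labels also give a blood glucose level for each animal, which the study's methods describe as fasting glucose. Within groups no member was called by its slope on glucose, and 0% of all probes were called, with 3 members and 4.84% of all probes at an unadjusted p below 0.05. The 3 smallest p-values were those of Ugp2 (-0.04 per SD of 33.4 mg/dl), Pfkp (0.05) and Phkb (-0.10), each with an adjusted p of 0.92 by limma.

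A second list held 51 other genes of these pathways, of which 31 were tested, among them glucose transporters, further kinase subunits and isoforms. In LF_HF against LF_LF 1 was called higher and 1 lower, both encoding enzymes that set fructose 2,6-bisphosphate, beside 2.4% of all probes called higher and 1.78% lower. Pfkfb2 had a median of 200.0 in LF_LF and 270.15 in LF_HF and differed by 0.36 ± 0.09 (limma adjusted p = 0.025). Its call was lost in 12 of 40 alternatives. Among them were the fits without cage 4, 6, 11 or 14 (adjusted p up to 0.265) and without LF_LF replicate 4 or 7, with differences of 0.31 to 0.34. With the slow fibre score as a covariate the difference was 0.15 (adjusted p = 0.515). With 1 value per cage it was 0.40 (adjusted p = 0.0725), and within cages that held both diets 0.45 (adjusted p = 0.0752). Pfkfb4 had medians of 1294.1 and 1002.3 and differed by -0.35 ± 0.06 (limma adjusted p = 0.00138), with 9 of 10 LF_HF arrays below every LF_LF array. In HF_HF against HF_LF none of the 31 was called, and Pfkfb4 differed by -0.42 ± 0.10 (limma adjusted p = 0.0703).

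In the pooled post-weaning fit 2 of these 31 genes were called higher and 2 lower, beside 4.51% and 3.37% of all probes. Pfkfb4 was lower in all 20 HF-fed arrays than the mean of their LF-fed counterparts, -0.38 ± 0.06 (limma adjusted p = 4.07e-05). Slc37a4, the glucose 6-phosphate transporter, differed by -0.26 ± 0.07 (limma adjusted p = 0.0214). Pfkfb2 differed by 0.24 ± 0.06 (limma adjusted p = 0.011), and Galm, which interconverts the anomers of glucose, by 0.09 ± 0.03 (limma adjusted p = 0.0366). Pfkfb2 lost its call without cage 11 (0.22, adjusted p = 0.0667) or cage 23 (0.17, adjusted p = 0.139), and Slc37a4 without cage 4 (-0.24, adjusted p = 0.0874), cage 11 (-0.26, adjusted p = 0.0682) or cage 23 (-0.20, adjusted p = 0.127) and without the 3 arrays rich in immune cell markers (-0.24, adjusted p = 0.0564). With the slow fibre score as a covariate the calls of Pfkfb2 (0.15, adjusted p = 0.144) and Slc37a4 (-0.23, adjusted p = 0.0982) were lost as well. Galm, whose probe averaged 83.3, lost its call in 25 of 59 alternatives. No gene of the second list was called for the dam's diet, the interaction or either slope.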

How the data were processed

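Total RNA was extracted with Trizol and RNeasy columns per the labels. The authors quantile-normalised the fluorescence signals of the 40 muscle arrays, and the deposited intensity of each of 25697 probes is on a linear scale (submitters' processing notes: BeadStudio, with no version given in the sources used here). Once sorted, the values of any 2 arrays matched to within 0.5. The table has 0 other columns of sample values. The number of arrays limits the precision.

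Groups came from the diet labels. Log2 intensities were tested with limma 3.58.1 in R 4.3.3 (lmFit, eBayes with an intensity trend, two-sided), in pairs of 20 arrays or as group means over 40, on probes above their array's median in at least 20 of 40 arrays. Symbols came from the platform annotation, where 1719 probes had no symbol, and were updated through the RefSeq gene table by gene identifier (0 changed). Pgm1 was read from its own probe. Animals of 1 cage were treated as independent in the main tests. Scores are means of log2 deviations over tested markers.

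Members and gene lists were chosen with earlier results of these data known. Named in each comparison were the called members, or the 3 with the smallest p where fewer were called, the called genes of the second list, and others described for their role after their values were seen. The script was tested on simulated data. Alternatives covered the filter, the log scale, the variance model, cage, array set, immune-rich arrays, covariates, further probes, and leaving out arrays or cages; the fit within mixed cages for the pooled diet effect was added after seeing the data.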

Additional observations from a re-analysis of the deposited data

Results flagged for a closer look

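Of 96 pairs of a member and a group, 4 held an array that stood apart from the other 9 by more than Dixon's 95% critical value (gap over range), which chance exceeds in about 1 of 20 groups. Pfkl was highest in HF_HF replicate 1, at 305.6, with the next array at 228.1. Phka1 was highest in HF_LF replicate 6, at 2158.2, with the next at 1198.1. HF_LF replicate 2 was lowest for both Eno3, at 22841.8 with the next array at 28858.5, and Gyg, the primer of glycogen, at 987.8 with the next at 1317.1. None of these 4 genes was called in a diet comparison.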

How the results depend on the processing

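All 35 named values kept their direction under every alternative run on the same probe. Other probes of a gene were not among these alternatives. In HF_HF against HF_LF the second Pfkl probe went the other way. In LF_HF against LF_LF the 2 calls became 0 with the slow fibre score or later body weight as a covariate, within array set 1 or within cages that held both diets, and 1 within array set 2. Leaving out an array or cage gave 1 to 4 calls (4 without LF_LF replicate 1, 3 without LF_HF replicate 9), with Pygm lost without cage 4 (-0.27, adjusted p = 0.066) or cage 11 (-0.30, adjusted p = 0.0524). In HF_HF against HF_LF the 1 call became 0 within either array set, with body weight as a covariate, with 1 value per cage or within mixed cages, and 0 to 2 on leaving out arrays or cages (2 without HF_LF replicate 8 or cage 20). The pooled post-weaning count of 5 became 3 with the slow fibre covariate and 1 within mixed cages, and 4 to 7 on leaving out arrays or cages. The pooled maternal count of 0 became 0 to 1. The slope on the slow fibre score gave 0 without the filter and without the 2 farthest arrays, 2 without the 3 arrays rich in immune markers, and 0 to 2 on leaving out arrays or cages. The other 4 counts stayed at 0 throughout, also on leaving out arrays or cages. Why counts moved was not tested, beyond fewer arrays within sets and mixed cages. Counts over all probes are not given for the fits with body weight, without the filter or leaving out arrays or cages. The member counts of those fits are therefore not read as a result about the members. Over all probes the calls in LF_HF against LF_LF fell from 521 to 61 with the slow fibre covariate, to 2 and 104 within array sets 1 and 2, and to 108 within mixed cages. Those in HF_HF against HF_LF fell from 45 to 3 and 1 within array sets 1 and 2, to 0 with 1 value per cage and to 19 within mixed cages. Later body weight is a second weight that the labels place at weaning, read as the later one from its values, which lay above those at 3 weeks; it followed the post-weaning diet, so its covariate leaves little of the diet effect to estimate. Phkg1 kept its pooled call in all 59 alternatives, Ugp2 and Fbp2 in 58, Pygm in 57 and Gys1 in 51. Most of these alternatives left out a single array or cage. The fits within an array set, with body weight or with 1 value per cage, where pair calls were lost, were not run for the pooled effect. No paired analysis was possible by replicate number because the numbers only name the animals, in accession order; cage served as the block within mixed cages, with the values given. Dim probes (Pgk1, Pfkfb3) and probes near the top of the scale (Eno3, Gapdh, Aldoa) limit what a change could show.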
